A study of Mus musculus with 21 samples.

Results

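The triad and calcium-handling genes of skeletal muscle were described in quadriceps RNA-seq of male C57/Bl6 wildtype mice, across sedentary, untrained and trained muscle. The 10 genes were taken by symbol from a matrix of 53738 gene symbols, and all 10 were found: Cacna1s, Stac3, Ryr1, Jph1, Jph2, Atp2a1, Sln, Pln, Casq1 and Casq2. The 21 libraries fall into 7 groups of 3. Sedentary mice performed no exercise, and untrained mice ran on a treadmill until exhaustion with no training beforehand. Trained mice ran to exhaustion under the same protocol after 12 weeks of voluntary wheel running with no rest period in between. The paper reports better performance of trained mice in maximal capacity tests, so the work done in the bout was not matched. Muscle was taken 0 h, 6 h or 72 h after the bout, at 22 to 26 weeks of age, and all groups carried the wildtype genotype. The wheel running was voluntary.

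Excitation-contraction coupling turns an action potential into a calcium signal inside the muscle fibre. In the triad, where a transverse tubule meets the sarcoplasmic reticulum, the voltage sensor in the tubule membrane opens the calcium release channel of the reticulum by direct contact, and junctophilins hold the membranes together. Calcium is then pumped back by the SERCA pump, whose activity is restrained by small membrane peptides, and is held inside the store by calsequestrin.

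Values were given as TPM, a measure of transcript abundance corrected for length in which every library has nearly the same total. They keep no read counts, the sequencing depth is therefore unknown, and the precision rests on the 3 libraries of a group. Replicate 1 of untrained 0 h and replicate 1 of trained 0 h held identical values for all 53738 symbols, which leaves 20 distinct libraries, and every result that uses a 0 h group shares that library. Transcripts of the mitochondrial genome took 37.8% to 48.0% of the total, with the lowest share in the shared library. The tissue label was borne out by its markers: the summed level of 8 fast fibre genes lay between 84772 and 113783 TPM, that of 7 slow fibre genes between 225 and 1053 TPM, and that of 6 cardiac genes between 1.17 and 3.88 TPM. Gene differences were tested with limma on log2(TPM + 0.5), and a gene was said to have risen or fallen at a Benjamini-Hochberg adjusted p below 0.05 with a change of at least 1.5-fold. Of the 10 genes, 9 passed the filter of a mean of at least 1 TPM, and Pln, at a mean of 0.965 TPM, did not. Sln also passed it without the groups where it was high, at 1.13 TPM.

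The genes lie on 6 chromosomes of the GRCm39 build and are all protein-coding in the GENCODE annotation. Cacna1s (ENSMUSG00000026407.19, the pore and voltage-sensing subunit of the tubule calcium channel) is at chr1:135980259-136047560 on the plus strand. Stac3 (ENSMUSG00000040287.11, the adaptor that brings this channel to the tubule) is at chr10:127337542-127344696, plus strand. Ryr1 (ENSMUSG00000030592.20, the calcium release channel) is at chr7:28702769-28824604, minus strand. The junctophilins are Jph1 (ENSMUSG00000042686.7) at chr1:17012318-17168113 and Jph2 (ENSMUSG00000017817.13) at chr2:163178162-163239920, both on the minus strand. Atp2a1 (ENSMUSG00000030730.14, the fast-fibre SERCA pump) is at chr7:126045013-126063423, minus strand. Its peptide regulators are Sln (ENSMUSG00000042045.8, sarcolipin) at chr9:53742537-53761846 and Pln (ENSMUSG00000038583.15, phospholamban) at chr10:53199622-53223512, both on the plus strand. Casq1 (ENSMUSG00000007122.13, the fast-fibre calsequestrin) is at chr1:172037459-172049328 on the minus strand, and Casq2 (ENSMUSG00000027861.15, the cardiac and slow-fibre form) is at chr3:101993234-102056307 on the plus strand.

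RefSeq promoters of the GRCm38.p6 build, from 250 bases before to 50 after the start site, were matched for 7 of the 10 genes. No entry was matched for Sln, Jph1 or Stac3. The calsequestrin pair is shown because both proteins buffer calcium in the store, in different fibre types. Capitals mark E-boxes, the CANNTG motif bound by myogenic factors, which reads the same way on both strands. The Casq1 promoter is chr1:172219846-172220145 on the minus strand and the Casq2 promoter chr3:102086165-102086464 on the plus strand.
Casq1: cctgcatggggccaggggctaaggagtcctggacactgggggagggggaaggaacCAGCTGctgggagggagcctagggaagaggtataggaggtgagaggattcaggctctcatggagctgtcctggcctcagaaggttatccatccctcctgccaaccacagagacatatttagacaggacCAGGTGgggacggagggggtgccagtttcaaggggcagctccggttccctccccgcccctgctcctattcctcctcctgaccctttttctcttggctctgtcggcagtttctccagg
Casq2: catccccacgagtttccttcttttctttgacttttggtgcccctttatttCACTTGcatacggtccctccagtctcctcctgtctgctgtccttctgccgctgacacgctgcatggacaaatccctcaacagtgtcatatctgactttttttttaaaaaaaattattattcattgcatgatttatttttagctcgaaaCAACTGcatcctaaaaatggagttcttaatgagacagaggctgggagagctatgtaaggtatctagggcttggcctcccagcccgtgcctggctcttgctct
Each of these holds 2 E-boxes. Casq1 has a CAGCTG box at position -195 from the start site, a form also found in Cacna1s, Jph2, Atp2a1 and Pln and in 16.3% of 32851 promoters of this length. This narrower form was searched for after the matches had been seen. Casq2 has no CAGCTG box and is the single matched gene with a MEF2 motif, beginning at position -69, which 3.19% of promoters hold. E-boxes of any form are in 72.3% of promoters, and the Ryr1 promoter has none. The CArG motif, in 1.63% of promoters, and the GGAAAA core bound by NFAT, in 23.4%, both searched on either strand, were in none of the 7. These matches describe letters in a window and no binding was measured.

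Levels spanned a wide range. Atp2a1 had a mean of 6110.1 TPM over the 21 libraries and ranked 32 among all symbols. Casq1 followed at 901 TPM. Stac3 at 221, Ryr1 at 157, Cacna1s at 139 and Jph2 at 128 TPM formed a middle range, with Jph1 at 50.7 TPM. The lowest were Casq2 at 8.37, Sln at 2.12 and Pln at 0.965 TPM. The high genes varied little, with the highest library 1.48 (Jph2) to 1.83 (Casq1) times the lowest. For Pln this ratio was 2.67 and for Casq2 3.33, and for Sln it was 16.7.

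**Figure D1:**
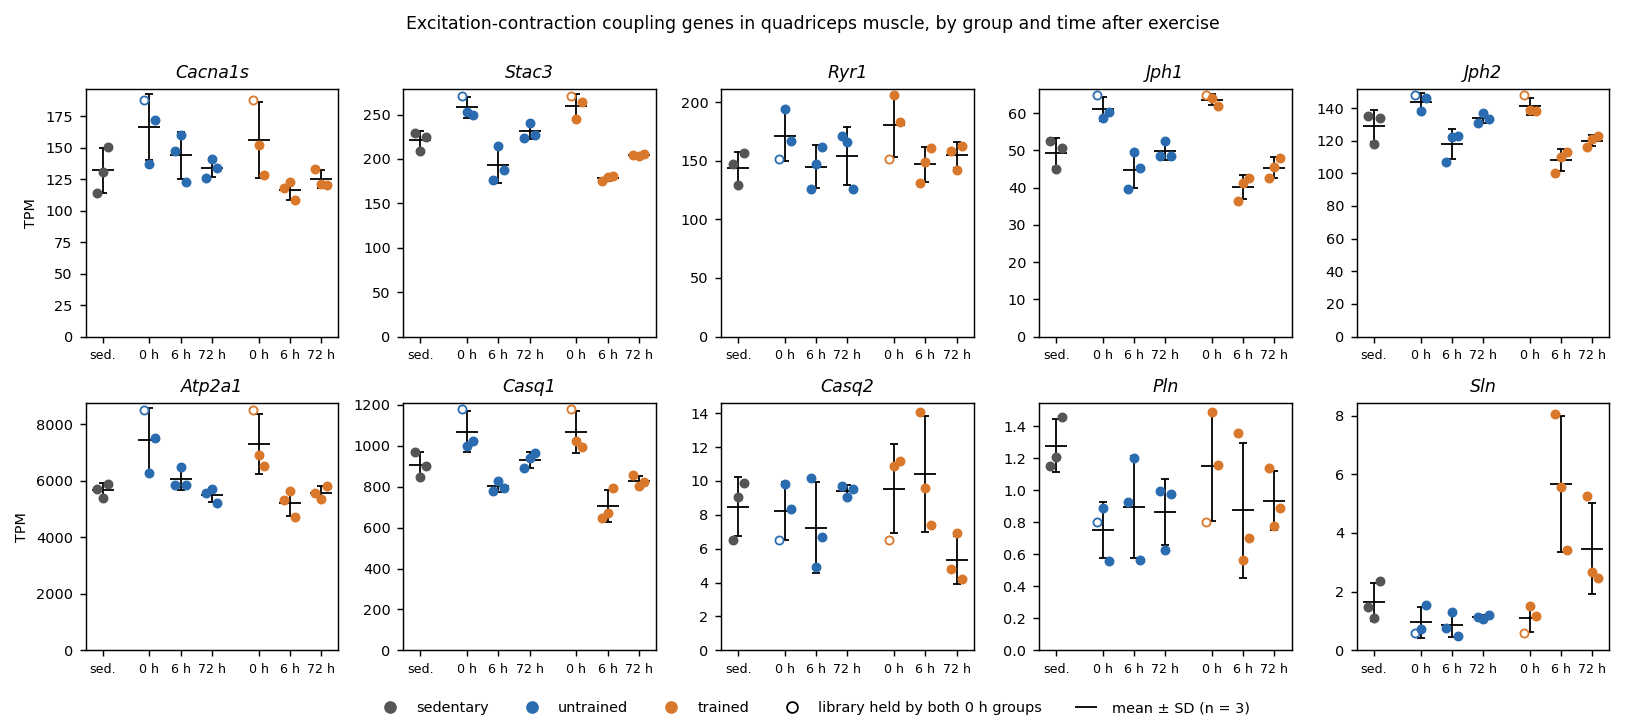
TPM of the 10 genes in each library (points) with the mean and SD of each group (n = 3), each panel starting at 0; open points mark the library with identical values in both 0 h groups. Jph1, Casq1 and Stac3 are highest at 0 h and lowest at 6 h in trained muscle, and Sln is high in trained muscle at 6 h and 72 h, with no other group above 2.35 TPM.

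Sarcolipin had the largest called changes among the members. Sln was 1.49, 1.09 and 2.35 TPM in sedentary muscle. Untrained muscle had 0.575, 0.735 and 1.56 TPM at 0 h, 0.775, 1.3 and 0.483 TPM at 6 h, and 1.13, 1.07 and 1.21 TPM at 72 h. Trained muscle had 0.575, 1.5 and 1.18 TPM at 0 h, 8.05, 5.57 and 3.41 TPM at 6 h, and 5.25, 2.68 and 2.47 TPM at 72 h. All 6 trained libraries at 6 h and 72 h lay above every library of the other groups, and these other groups overlapped each other. In the order of group means, trained 72 h and sedentary were the sole neighbours whose libraries did not overlap.

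Compared with untrained muscle at the same time, Sln rose in trained muscle at 6 h by 2.17 on the log2 scale (SE 0.35, limma with Benjamini-Hochberg adjustment, adjusted p = 0.00179), from a mean of 0.851 to 5.68 TPM, a ratio of 6.67. With the model restricted to the compared groups, the same difference had an adjusted p of 0.151 in limma and did not pass. It was the single member called in this comparison, in which 2.01% of 11819 tested genes were called and 0.558% rose. At 72 h the log2 difference was 1.21 (SE 0.35, limma adjusted p = 0.134), which did not pass, with 0.245% of genes called and 0 of 9 members. There, 4 members and 1769 of the 11819 tested genes had an unadjusted p below 0.05 in limma. Averaged over 6 h and 72 h, the trained libraries were higher by 1.69 (SE 0.25, limma adjusted p = 0.000969), again the single member called, where 1.08% of genes were called and 0.178% rose. At 0 h, where the groups share a library, 0 of 9 members and 0% of genes were called. There, 0 members and 143 of the 11819 tested genes had an unadjusted p below 0.05 in limma.

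Over time, Sln rose in trained muscle from 0 h to 6 h by 1.94 on the log2 scale (SE 0.35, limma adjusted p = 0.00122) and was 1.68 higher with the shared library left out (limma adjusted p = 0.00893). In untrained muscle the same step was -0.09 (SE 0.35, limma adjusted p = 0.897). The difference between these steps was 2.03 (SE 0.50), with an adjusted p of 0.0789 in limma, and 1.96 with an adjusted p of 0.16 without the shared library. It did not pass, whereas 0.651% of genes did (0.313% without that library). This test was chosen after seeing the data. Against sedentary muscle, Sln rose in trained muscle at 6 h by 1.5 (SE 0.35, limma adjusted p = 0.012), with 1 of 9 members and 3.85% of all genes called, and 2.41% of all genes rising. This call was lost without sedentary replicate 2 (1.3, adjusted p = 0.0559) and without trained 6 h replicate 1 (1.23, adjusted p = 0.0657). At 72 h the value was 0.86 (limma adjusted p = 0.356).

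**Figure D2:**
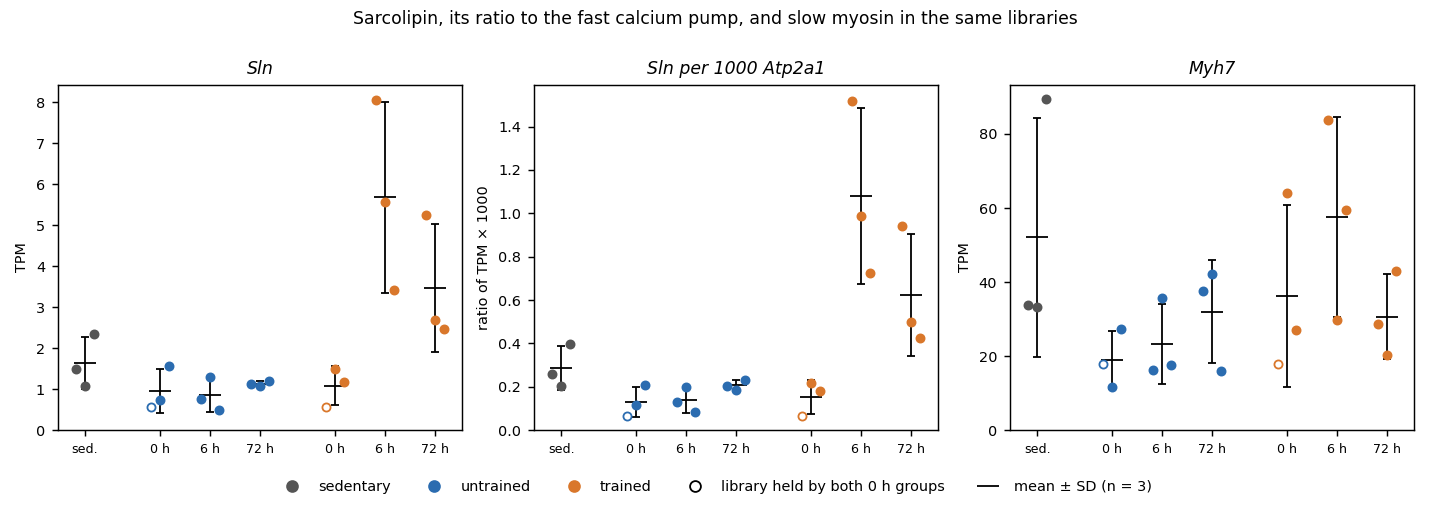
Sln in TPM, Sln per 1000 units of Atp2a1 TPM, and the slow myosin Myh7 in TPM, per library with the group mean and SD (n = 3). The ratio of Sln to Atp2a1 separates trained muscle at 6 h and 72 h from every other group, while the Myh7 values of these groups overlap those of sedentary muscle.

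The higher level was also seen relative to the pump that sarcolipin binds. Per 1000 units of Atp2a1, Sln lay between 0.723 and 1.52 in trained muscle at 6 h and between 0.425 and 0.943 at 72 h, and was at most 0.398 in all other libraries. Slow fibre markers were also higher in trained than untrained muscle at 6 h. The summed level of the 7 slow fibre genes was 350.3 to 1053 TPM against 225 to 341 TPM, and 1 of the 6 that were tested, Myl2, rose (log2 difference 1.41, limma adjusted p = 0.048). At 72 h the slow fibre sums overlapped, at 241 to 381 TPM in trained and 331 to 473 TPM in untrained muscle. None of the slow fibre genes was called there (0 of 6 tested), where 0.245% of all genes were called. Every trained Sln value at 72 h was above every untrained one. The same held for the slow-fibre pump gene Atp2a2, which is not among those 7 genes. Its means at 72 h were 36.4 TPM in trained and 28.7 TPM in untrained muscle, and it was not called. The Atp2a2 means were 52.2 and 22.7 TPM at 6 h, and 41.9 TPM in sedentary muscle. Sedentary muscle had slow fibre sums of 505 to 947 TPM with Sln at or below 2.35 TPM. In whole muscle, more fibres of a type and more RNA per fibre cannot be told apart. The part of slow fibre content in the Sln values was not tested. The atria also express Sln, and the 6 cardiac markers together reached 1.82 to 2.9 TPM in trained muscle at 6 h, against 2.5 to 3.88 TPM in sedentary muscle.

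Pln and Casq2, the other members of low level, were not called in any comparison. Pln was between 0.565 and 1.36 TPM in trained muscle at 6 h and between 1.15 and 1.46 TPM in sedentary muscle, and every group overlapped its neighbours in the order of means. Groups further apart did not all overlap. Untrained 0 h (0.558 to 0.892 TPM), untrained 72 h (0.629 to 0.993 TPM) and trained 72 h (0.78 to 1.14 TPM) lay below all sedentary values. The other exercised groups overlapped sedentary muscle. The share of all genes apart in these pairs was not counted. Tested without the filter on expression, Pln was called in 0 of 14 comparisons. The unadjusted p was below 0.05 in 1, untrained 0 h against sedentary (log2 difference -0.51, limma adjusted p = 0.291). Sln per 1000 units of Pln was 4848 to 9865 in trained muscle at 6 h and 901 to 1603 in sedentary muscle. Because the library kit does not keep strand, reads of Pln cannot be told apart, in the bases they share, from those of the antisense lncRNA gene Gm47644 (2688 exonic bases) and the antisense protein-coding gene Cep85l (141 exonic bases). Cep85l was listed at 2.22 to 7.04 TPM, between 183% and 829% of Pln.

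Casq2 was 6.52, 9.07 and 9.86 TPM in sedentary muscle, 14.1, 9.57 and 7.39 TPM in trained muscle at 6 h, and 4.8, 6.92 and 4.24 TPM in trained muscle at 72 h. The libraries of trained 72 h lay below all of trained 6 h and all of untrained 72 h, which was 9.69, 9.05 and 9.54 TPM. The log2 difference from 6 h to 72 h in trained muscle was -0.88 (SE 0.28, limma adjusted p = 0.0602), and that between trained and untrained muscle at 72 h was -0.80 (SE 0.28, limma adjusted p = 0.198). Neither passed. In the former, 0 of 9 members and 3.48% of all genes were called, and 4 members and 2606 of the 11819 tested genes had an unadjusted p below 0.05 in limma. With the shared 0 h library left out of the model, the change from 6 h to 72 h reached an adjusted p of 0.0454. The gene whose log2 levels were most like those of Casq2 was Myh2, the myosin of fast oxidative fibres (r = 0.866 over 20 libraries), which fell over the same step by 0.90 on the log2 scale (limma adjusted p = 0.0326).

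Junctophilin 1 and calsequestrin 1 fell after the bout in trained muscle. From 0 h to 6 h in trained muscle, Jph1 and Casq1 fell and Sln rose, 3 of 9 members, against 6.46% of all genes called in this step (1.51% rose and 4.95% fell). Jph1 was 64.8, 64.2 and 62.0 TPM at 0 h and 36.5, 41.3 and 42.7 TPM at 6 h. It fell by 0.66 on the log2 scale (SE 0.08, limma adjusted p = 6.89e-05), and the libraries were apart. Casq1 was 1182, 1024 and 992 TPM at 0 h and 645, 674 and 795 TPM at 6 h, and it fell by 0.60 (SE 0.09, limma adjusted p = 0.000195). The Jph1 mean decreased by 36.8%. The Casq1 mean decreased by 33.9%.

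A further 4 members were lower at 6 h in trained muscle at an adjusted p below 0.05 without reaching 1.5-fold. Stac3 differed by -0.54 (SE 0.07, limma adjusted p = 5.05e-05), Atp2a1 by -0.48 (SE 0.11, adjusted p = 0.00473), Cacna1s by -0.41 (SE 0.14, adjusted p = 0.049) and Jph2 by -0.39 (SE 0.07, adjusted p = 0.000837). By adjusted p alone, 7 of 9 members and 25.1% of all genes passed in this step, 6 of these members and 21.3% of genes being lower. Ryr1, the release channel, was 152, 206 and 183 TPM at 0 h and 131, 149 and 161 TPM at 6 h, and the difference of -0.29 did not pass. The libraries of 7 members did not overlap between the time points, as was the case for 41.1% of all genes. The median of all tested genes was itself -0.15 in this step, and the median of the 9 members was -0.41.

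The scaling changed the size of these values and not their direction. With median-of-ratios scaling, which brings the median gene close to no change, Jph1 differed by -0.50 and Casq1 by -0.44, and with TPM rescaled after the mitochondrial genome and the 10 highest genes were left out they differed by -0.45 and -0.39. None of these reached 1.5-fold, and all had a limma adjusted p below 0.05. Cacna1s no longer passed by adjusted p under median-of-ratios scaling (-0.25, limma adjusted p = 0.29), with rescaled TPM (-0.20, adjusted p = 0.321), without the shared library (-0.26, adjusted p = 0.195), with the replicate number as a block (-0.41, adjusted p = 0.0593), with no filter on expression (adjusted p = 0.105) or with the model restricted to the compared groups (adjusted p = 0.133). It passed with trained 0 h replicate 3 left out (-0.54, adjusted p = 0.0185), and leaving out any of the other 5 libraries of this step gave an adjusted p of 0.0727 to 0.221. Atp2a1 did not pass under median-of-ratios scaling (-0.32, adjusted p = 0.062). The Casq1 change was also under 1.5-fold without trained 0 h replicate 1 (-0.52), without trained 6 h replicate 1 (-0.54) and without trained 6 h replicate 2 (-0.57). The fast fibre sum was 93797 to 108615 TPM at 0 h and 84772 to 91876 TPM at 6 h in trained muscle. The part of these values in the result was not tested.

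**Figure D3:**
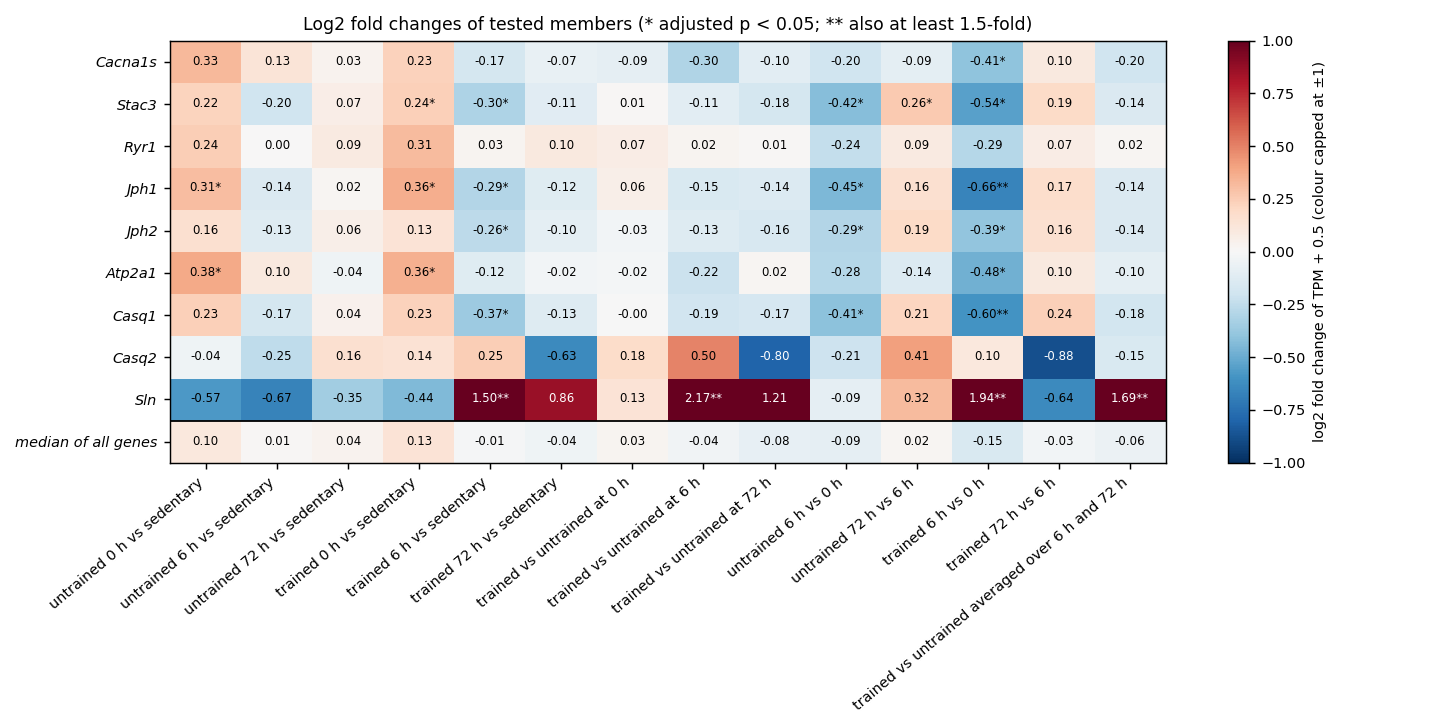
Log2 fold change of TPM + 0.5 for the 9 tested genes in 14 comparisons, with the median of all tested genes in the bottom row; colour is capped at 1 in either direction. Sln has the 4 largest marked changes. The trained step from 0 h to 6 h has the most marked genes, 7, followed by trained 6 h against sedentary with 5 and the untrained step from 0 h to 6 h with 4.

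In untrained muscle, 0 of 9 members reached both thresholds from 0 h to 6 h, with 4.64% of all genes called. At an unadjusted p below 0.05 in limma there were 5 members and 3198 of the 11819 tested genes. By adjusted p alone 4 members were lower, against 7.94% of all genes. These were Jph1 (-0.45, limma adjusted p = 0.00227), Stac3 (-0.42, adjusted p = 0.000545), Casq1 (-0.41, adjusted p = 0.00539) and Jph2 (-0.29, adjusted p = 0.0106). Over the alternatives that keep every library, the limma adjusted p reached 0.0936, 0.0906, 0.0774 and 0.136 in this order. It stayed below 0.05 with each library left out. Both 0 h groups contain the shared library. The difference between the trained and the untrained step was -0.21 (SE 0.12, limma adjusted p = 0.588) for Jph1 and -0.19 (SE 0.12, adjusted p = 0.638) for Casq1, so a larger change in trained muscle was not shown.

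Directly after the bout, Jph1 and Atp2a1 were higher than in sedentary muscle by adjusted p alone, in both training states. In sedentary muscle Jph1 was 52.5, 45.0 and 50.7 TPM, and at 0 h in untrained muscle it was 64.8, 58.6 and 60.3 TPM. The difference was 0.31 (SE 0.08, limma adjusted p = 0.0353) in untrained and 0.36 (SE 0.08, adjusted p = 0.0128) in trained muscle. Atp2a1 was 5722, 5377 and 5899 TPM in sedentary muscle and 8511, 6266 and 7528 TPM at 0 h in untrained muscle, a difference of 0.38 (SE 0.11, limma adjusted p = 0.0387), and its trained difference was 0.36 (adjusted p = 0.0446). Stac3 was higher by 0.24 in trained muscle (limma adjusted p = 0.0354). None reached 1.5-fold, so that 0 of 9 members were called in either group, where 3.59% (untrained) and 3.74% (trained) of genes were. By adjusted p alone, 2 members and 6.49% of genes were higher in untrained muscle, and 3 members and 8.68% of genes in trained muscle. At an unadjusted p below 0.05 in limma there were 6 members in untrained and 5 in trained muscle, against 2860 and 3217 of the 11819 tested genes.

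These 0 h differences depended on the shared library and on the scaling. Without that library the limma adjusted p was 0.158 for Jph1 and 0.0968 for Atp2a1 in untrained muscle, and 0.117 for Atp2a1, 0.117 for Stac3 and 0.048 for Jph1 in trained muscle. All genes together were higher than in sedentary muscle, by a median of 0.10 in untrained and 0.13 in trained muscle. With rescaled TPM, Jph1 was higher by 0.14 in untrained muscle and Atp2a1 by 0.21, with adjusted p above 0.05. The shared library was the highest of all for Cacna1s, Stac3, Jph1, Jph2, Atp2a1 and Casq1. A ratio within a library does not depend on scaling. Jph2 per 1000 units of Jph1 was 2278 to 2423 at 0 h in untrained muscle and 2163 to 2278 in trained muscle, and 2473 to 2753 in all other libraries, so the 0 h values did not overlap the rest.

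At 6 h against sedentary muscle, 4 members were lower in trained muscle at an adjusted p below 0.05 and less than 1.5-fold, while 4.66% of all genes were lower by adjusted p alone. Casq1 differed by -0.37 (limma adjusted p = 0.0122), Stac3 by -0.30 (adjusted p = 0.00795), Jph1 by -0.29 (adjusted p = 0.0347) and Jph2 by -0.26 (adjusted p = 0.022). Over the alternatives that keep every library, the limma adjusted p reached 0.122 for Casq1, 0.0536 for Stac3, 0.152 for Jph1 and 0.154 for Jph2. With each library left out it reached 0.0649, 0.04, 0.158 and 0.105 in the same order. In untrained muscle at 6 h, 0 of 9 members were called against 4.42% of genes, with 1 member and 2574 of the 11819 tested genes at an unadjusted p below 0.05 in limma. Trained and untrained muscle at 6 h overlapped for Jph1, at 36.5 to 42.7 and 39.7 to 49.5 TPM.

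At 72 h no member passed against sedentary muscle. In untrained muscle 0 of 9 members and 0.00846% of genes were called against sedentary muscle, and 0 members and 682 of the 11819 tested genes had an unadjusted p below 0.05 in limma. In trained muscle 0 of 9 members and 0.169% of genes were called. At an unadjusted p below 0.05 in limma there were 2 members, Sln and Casq2, and 1379 of the 11819 tested genes. From 6 h to 72 h in untrained muscle, 0 of 9 members and 4.04% of genes were called, and 3 members and 2578 of the 11819 tested genes had an unadjusted p below 0.05 in limma. Stac3 was higher by 0.26 (SE 0.07, limma adjusted p = 0.0187), as were 3.83% of genes by adjusted p alone. Its limma adjusted p reached 0.204 over the alternatives that keep every library. Stac3 was 204, 203 and 205 TPM in trained muscle at 72 h, below the sedentary values of 229, 209 and 225 TPM and the untrained 72 h values of 224, 241 and 227 TPM, and neither difference passed (limma adjusted p = 0.55 and 0.231).

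In the order of group means, both 0 h groups came highest for Cacna1s, Stac3, Ryr1, Jph1, Jph2, Atp2a1 and Casq1. Trained muscle at 6 h came lowest for all of these except Ryr1. For Cacna1s the place of trained 0 h depended on the shared library. Without it the trained 0 h mean was 139.8 TPM, below the 144 TPM of untrained 6 h. The median of all tested genes was also above sedentary muscle at 0 h, by 0.10 in untrained and 0.13 in trained muscle. Most neighbours in these orders overlapped. The lower 0 h group was apart from the group next to it for Stac3, Jph1, Jph2, Atp2a1 and Casq1, and for Stac3 sedentary muscle was also apart from trained 72 h. For Atp2a1 the gap was small, 6512 TPM at trained 0 h against 6495 TPM at untrained 6 h. The share of all genes apart in these same pairs was not counted. Between trained 0 h and trained 6 h it was 41.1%, so such separation was common. For Cacna1s and Ryr1 no neighbours were apart.

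Several members share exonic bases with an antisense gene, and without strand in the libraries the reads from those shared bases cannot be told apart. Rabep2, which encodes an endosomal effector protein, shares 1188 exonic bases with Atp2a1 and was listed at 1122 to 1739 TPM, between 20.4% and 24.3% of Atp2a1 in every library. The lncRNA genes Gm17224, Gm26604 and Gm37759 overlap Casq1, Ryr1 and Cacna1s by 291, 898 and 1334 exonic bases. They stood at 20.8% to 24.4%, 19.2% to 24.0% and 16.6% to 21.5% of their partner. Gm17224 and Rabep2 were the genes most like Casq1 (r = 0.976) and Atp2a1 (r = 0.942), and Gm26604 the most like Ryr1 (r = 0.948), over 20 libraries. Sln and Stac3 overlap no annotated gene.

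**Figure D4:**
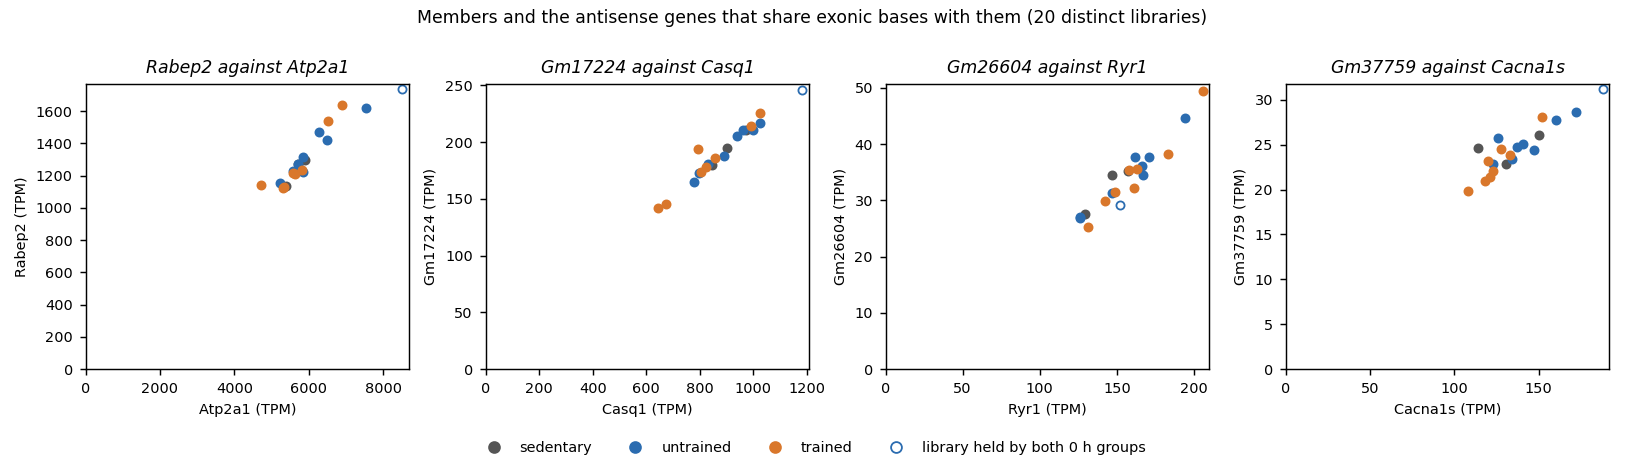
TPM of 4 antisense genes against the member each overlaps, for the 20 distinct libraries, with both axes starting at 0. The points of each panel lie close to a line through the origin, at 16.6% to 24.4% of the member.

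Apart from these partners, several genes most like a member across libraries were other members or muscle genes. For Jph1 they were Stac3 (r = 0.945), Jph2 (r = 0.937) and Micu3, a regulator of mitochondrial calcium uptake (r = 0.932). For Stac3 they were Myoz3, a Z-disc protein (r = 0.959), Jph1 (r = 0.945) and Rtn4 (r = 0.943), and for Jph2 Cacng6, a gamma subunit of calcium channels (r = 0.961), Trim55 (r = 0.955) and Phkg1 (r = 0.953). Casq1 was followed by Pgam2 of glycolysis (r = 0.952) and Sypl2, a triad membrane protein (r = 0.948), and Ryr1 by the muscle sodium channel Scn4a (r = 0.902). Cacna1s was most like G6pc3 (r = 0.912), Rhog (r = 0.9) and Gm37759 (r = 0.893), and Pln most like Slc20a2 (r = 0.725), Tmem216 (r = 0.709) and Homer2 (r = 0.652). After the genes already given came Cdh15 (r = 0.909) and Fxyd1 (r = 0.908) for Atp2a1, Abcc9 (r = 0.889) for Ryr1, and Myoz2 (r = 0.775) and Mybpc1 (r = 0.742) for Casq2. Sln was most like Ntng2 (r = 0.833), Ablim3 (r = 0.814) and Gstm7 (r = 0.802). Each r is over 20 libraries that share groups and scaling and is given as a description.

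Beyond the members, 60 further genes of the pathway were listed and 49 passed the filter. Between 0 and 4 of them were called in each comparison, where 0% to 6.46% of all genes were called. Among the genes called were 2 GTPases that inhibit calcium channels. Rrad, a small GTPase that inhibits calcium channels, was 1.06, 1.04 and 1.22 TPM in sedentary muscle, 8.15, 19.3 and 9.63 TPM in untrained muscle at 6 h and 4.56, 1.51 and 0.811 TPM in trained muscle at 6 h. It rose in untrained muscle by 2.91 against sedentary muscle (SE 0.42, limma adjusted p = 0.000302) and the difference of trained from untrained muscle at 6 h was -2.34 (SE 0.42, adjusted p = 0.00362). Gem, a GTPase of the same family, rose at 0 h by 1.62 in untrained (limma adjusted p = 4.16e-05) and 1.96 in trained muscle (adjusted p = 6.06e-06), and fell from 0 h to 6 h in both. The Gem mean was 2.98 TPM at 0 h in untrained and 3.94 TPM in trained muscle, and 0.513 to 0.815 TPM in the other groups. Gem thus passed the filter of 1 TPM only through the 0 h groups where it was high, and its calls are given as a description.

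Calm2, which encodes calmodulin, was 201, 159 and 168 TPM at 0 h in trained muscle, 55.0, 59.9 and 67.3 TPM at 6 h and 73.8, 119.7 and 129 TPM at 72 h. It fell from 0 h to 6 h by 1.53 on the log2 scale (SE 0.21, limma adjusted p = 0.000112), and by 0.70 in untrained muscle (adjusted p = 0.0369). The untrained ratio of the 6 h to the 0 h mean was 0.6, and 0.667 without the shared library. From 0 h to 6 h in trained muscle, Slc8a3, a sodium-calcium exchanger, fell by 0.82 (limma adjusted p = 0.00365), and Mrln, which encodes the SERCA-inhibiting peptide myoregulin, by 0.64 (adjusted p = 0.0256). The size of the Mrln change depended on the shared library. Its ratio of the 6 h to the 0 h mean was 0.63 with that library and 0.754, under 1.5-fold, without it. Of the 3 Mrln values at 6 h, 2 lay below all 0 h values. In this step 4 of the 49 fell, Gem among them, and 0 rose, where 4.95% of all genes fell and 1.51% rose. The median was -0.27 against -0.15 for all genes. Under either other scaling 3 fell. In untrained muscle 2 fell, Gem among them, and 1 rose, where 4.64% of all genes were called. The median was -0.19 against -0.09 for all genes. Without the shared library 1 fell and 1 rose, and under median-of-ratios scaling 1 fell and 2 rose. From 6 h to 72 h in trained muscle 3 of the 49 rose and 0 fell, where 3.48% of all genes were called. These were Slc8a3 (0.81, limma adjusted p = 0.00761), Calm2 (0.78, adjusted p = 0.0249) and Itpr1, an IP3-gated calcium release channel (0.60, SE 0.10, adjusted p = 0.00129), which was 2.84, 2.63 and 2.7 TPM at 6 h and 4.26, 4.60 and 4.36 TPM at 72 h. Dysf, dysferlin, a membrane repair protein of the tubules, rose in untrained muscle at 6 h against sedentary muscle (1.06, SE 0.18, limma adjusted p = 0.00109) and the trained minus untrained difference at 6 h was -0.71 (adjusted p = 0.0336). Macrophage markers moved in the same comparisons. Against sedentary muscle, 2 of 5 tested rose in untrained muscle at 6 h, where 417 of the 11819 tested genes rose. The marker sums were 19.3 to 40.6 TPM there, 17.2 to 19.9 TPM in sedentary and 14.7 to 20 TPM in trained muscle at 6 h. The part of these markers in the Dysf and Rrad values was not tested.

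The pump-restraining peptide Mrln was far above Sln in TPM in every group. Mrln was 218, 199 and 232 TPM in sedentary muscle and 140.2, 122 and 151 TPM in trained muscle at 72 h. Per 1000 units of Atp2a1 it was 37.0 to 39.3 in sedentary muscle and 22.9 to 26 in trained muscle at 72 h, and these ranges did not overlap. The Mrln difference between these groups was -0.65 (SE 0.19, limma adjusted p = 0.173) and did not pass. Atp2a2, the slow-fibre SERCA pump, was 2.54 to 14.6 per 1000 units of Atp2a1 in all libraries.

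**Figure D5:**
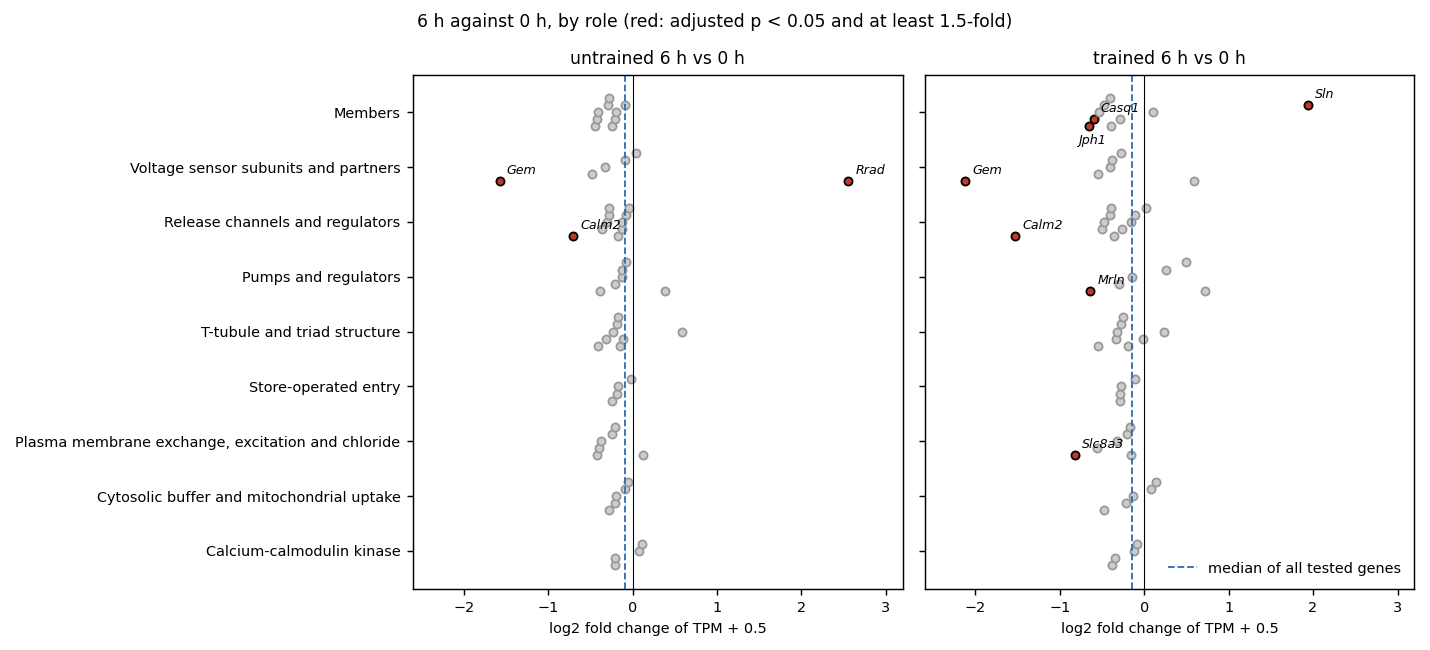
Log2 fold change of TPM + 0.5 from 0 h to 6 h in untrained (left) and trained (right) muscle for the members and the listed pathway genes by role; red points passed both thresholds and the dashed line is the median of all tested genes. The named red points are the 3 members and 4 listed genes called in trained muscle and the 3 listed genes called in untrained muscle.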

How the data were processed

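Quadriceps RNA of 21 libraries was measured by RNA-seq with a TruSeq RNA v2 kit. Per the labels, the authors used STAR 2.7.9 and Salmon 1.5.0 with GRCm39, and they deposited TPM values per gene symbol. DESeq2 is also named in the submitters' processing notes, and its version is left out here. All columns were mapped to a sample by name. Depth is not held in TPM values.

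The 10 members, the wider pathway list and the marker lists were chosen with earlier results of these data known. A model with a mean for each of 7 groups was fitted to log2(TPM + 0.5) with limma 3.58.1 in R 4.3.3 (trended variance, 14 residual degrees of freedom), for the 11819 symbols with a mean of at least 1 TPM. P values were adjusted over all tested symbols within each of 14 comparisons (Benjamini-Hochberg). The test of the difference between the trained and untrained steps from 0 h to 6 h and the CAGCTG search were added after seeing the data. The genes named are the 10 members, those of the pathway list that were called, the 3 genes most like a member by Pearson r of log2 values over the 20 distinct libraries, and genes that overlap a member. An item of the pathway list is not reported here and was left out of its counts. Micro-RNA and rarely detected overlapping genes are not described. The fit was tested on simulated data. Annotation was GENCODE vM39, and promoters came from RefSeq. The labels do not say that libraries of a group came from separate mice, so p-values measure the spread between libraries. Alternatives were pseudocounts of 0.1 and 1, no filter, a mean of at least 5 TPM, 2 other scalings, a model with the compared groups alone, no fold threshold, a replicate block, the shared library left out and each library left out in turn.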

Additional observations from a re-analysis of the deposited data

Results flagged for a closer look

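The difference in Sln between trained and untrained muscle at 6 h, 2.17 on the log2 scale, was flagged because the change from sedentary muscle differed between the training states by the limma test of that difference itself (adjusted p = 0.00179). With the model restricted to the compared groups the adjusted p was 0.151 and it did not pass. It was higher in 3 of 3 trained libraries than in all 3 untrained ones. The slow fibre sum was also higher in the trained libraries at 6 h, and its part in the result was not tested.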

How the results depend on the processing

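The member changes that passed both thresholds or the adjusted p alone kept their direction under the alternatives run on them. Most of those by adjusted p alone did not keep an adjusted p below 0.05 under every alternative. Changes that passed neither were not followed through each library left out. Without a threshold on the fold change, the members called were 2 at untrained 0 h and 3 at trained 0 h against sedentary muscle, 5 at trained 6 h against sedentary, 4 for untrained 6 h against 0 h, 1 for untrained 72 h against 6 h and 7 for trained 6 h against 0 h. With a mean of at least 5 TPM, Sln was not tested, which left 8 members and 0 calls for trained 6 h against sedentary, for trained against untrained at 6 h and for their average over 6 h and 72 h. With the model restricted to the compared groups and hence fewer libraries to estimate the spread, 0 members were called for trained 6 h against sedentary (Sln adjusted p = 0.0906 in limma) and 0 for trained against untrained at 6 h (0.151). For trained 6 h against 0 h, 1 of the 3 calls, Sln, was kept under median-of-ratios scaling and 1 under rescaled TPM. For trained 72 h against 6 h, 1 member (Casq2) was called with the shared library left out. Leaving out each library in turn gave 0 to 1 calls for trained 6 h against sedentary and 0 to 1 for trained 72 h against 6 h (1 without trained 6 h replicate 3). The cause of these was not tested. The Sln log2 difference between trained and untrained at 6 h ranged from 1.81 to 2.61 over alternatives with all libraries and from 1.89 to 2.46 with each library left out.

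With the replicate number as a block, the calls among members were 1 for trained 6 h against sedentary, 1 for trained against untrained at 6 h, 3 for trained 6 h against 0 h and 0 or 1 elsewhere, as without it, and no call at both thresholds changed. By adjusted p alone, Cacna1s in trained 6 h against 0 h (0.0593) and Stac3 in trained 0 h against sedentary (0.0556) did not pass under the block. Same-numbered libraries did not deviate together (median r = 0.018 over 62 pairs, against -0.005 for other pairs), so the numbers were not taken to pair the libraries.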
